A study of Saccharomyces cerevisiae with 21 samples.

Results

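The addition of ISP1 to heat-stressed budding yeast in rich medium was examined on 6 of the 21 arrays of the study, 3 from cells given heat and ISP1 and 3 from cells given heat, chosen by their titles. All of the cells were Saccharomyces cerevisiae, and each array measured 1 sample of total RNA. The groups used here were heat stress with ISP1, heat stress, ISP1 and an untreated control, each of 3 arrays and each grown in YPD, a medium of yeast extract, peptone and dextrose. The labels give 45 min for each of the 3 treatments and no time for the control. The other 9 arrays came from cells in synthetic complete medium and entered only the estimate of the spread. The labels give no strain, genotype, mating type, temperature, ISP1 dose or vehicle, and they do not say whether ISP1 was given before the heat or with it. Nor do they say whether the 3 arrays of a group came from separate cultures, so the p-values below measure the spread between arrays, which may be technical.

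ISP1 is a name for myriocin, a fungal metabolite that blocks serine palmitoyltransferase, the enzyme that joins serine to palmitoyl-CoA in the first step of sphingolipid synthesis. Heat stress speeds this step in yeast, and the sphingoid bases and ceramides made within minutes act as signals: they are known to bear on a transient stop in the cell cycle, on nutrient permeases and, through the kinases Pkh1 and Pkh2, on Ypk1 and Ypk2. The Orm proteins restrain the enzyme, and Ypk1 releases that restraint. Comparing heat with ISP1 against heat therefore asks which transcripts differ when this inhibitor is given to heated cells. The difference between that change and the change ISP1 makes without heat asks which heat changes differ in size with ISP1. It can also pass where ISP1 shifts only the unheated level. The arrays measure no lipids, so how far synthesis was blocked is not known from them.

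The deposited values are log2 signals, and a difference of 1 is a 2-fold change. Differences are given as a log2 fold change ± standard error from limma over 5449 genes, with a Benjamini-Hochberg adjusted p under 0.05 as the threshold. The median level of all genes was 10.3 to 10.31 on the arrays of heat with ISP1 and 10.28 to 10.29 on those of heat, and arrays within each of these groups correlated with r of 0.993 or more. Levels of 3.94, the median of probe sets for another species, are background.

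ISP1 in heated cells changed 1784 of 5449 genes, or 32.7%. Of these 898 rose (16.5% of all genes) and 886 fell (16.3%), and the median over all genes was 0.01. The normalization, RMA, gives every array 1 distribution, so that median and the balance of rises and falls are in part set by it. Most of the changes were small, since only 78 genes (1.43%) changed by 2-fold or more, 56 of them upwards (1.03%) and 22 downwards (0.404%). Heat with ISP1 against ISP1 changed 4206 genes (77.2%), with 40% of all genes up and 37.2% down. Heat against control changed 4394 (80.6%), with 39.8% up and 40.9% down, and 1488 (27.3%) changed by 2-fold or more. ISP1 against control changed 3331 (61.1%), with 27.9% up and 33.2% down. The interaction, the ISP1 change in heat less the ISP1 change without heat, passed for 2231 genes (40.9%), of which 1188 were positive (21.8%) and 1043 negative (19.1%). The arrays of heat with ISP1 lay all above those of heat for 23.9% of genes and all below for 21.5% of genes. Counts of rises and falls in the gene lists below are to be read against 16.5% and 16.3% of all genes.

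Transcripts for the sphingolipid enzymes themselves moved little, apart from regulators and the last steps of the pathway. In the list of serine palmitoyltransferase and its Orm regulators 3 of 5 members rose and none fell. ORM2, an inhibitor of the enzyme, measured 13.75, 13.66 and 13.67 in heat with ISP1, against 13.13, 12.81 and 12.87 in heat. The groups did not overlap, and the rise of 0.76 ± 0.07 (limma adjusted p = 4.29e-07) stood beside one of 0.71 without heat, with an interaction of 0.05 that did not pass (limma adjusted p = 0.741). ORM1, its paralogue, rose by 0.26 ± 0.07. The catalytic subunit gene LCB2 differed by 0.17 ± 0.07 (limma adjusted p = 0.0728). LCB1, for the other subunit, rose by 0.19 ± 0.07, a call lost without heat and ISP1 array 2 or 3 or without heat array 1, and on the 6 or the 12 YPD arrays alone. No member passed among the 3 genes of long-chain base reduction and hydroxylation or the 5 of long-chain base phosphate metabolism. Of the 5 ceramide synthase and ceramidase genes 2 rose, and neither call remained without heat and ISP1 array 2.

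The complex sphingolipid steps held the largest changes of the pathway, with 3 of 7 members up and 1 down. The fall, of AUR1, was lost in 8 of 16 alternatives and the third rise, of CSH1, in 6, among them the 6 or the 12 YPD arrays alone. IPT1 encodes the transferase that adds the last inositol phosphate group, and its level was 11.57, 11.66 and 11.69 in heat with ISP1, against 10.3, 10.32 and 10.3 in heat, 11.92, 11.96 and 11.92 in ISP1 and 11.3, 11.28 and 11.15 in the control. Heated cells without ISP1 had the lowest level of the 4 groups. ISP1 raised IPT1 in heated cells by 1.33 ± 0.06 (limma adjusted p = 7.85e-11), a change larger by 0.64 than without heat (limma adjusted p of the interaction 1.6e-05). SUR1, needed to add mannose to inositol phosphorylceramide, rose by 1.04 ± 0.12 and its level was 11.8, 11.58 and 11.49 in heat with ISP1, against 11, 10.29 and 10.47 in heat. ELO3, the elongase gene for the very long acyl chain of ceramide, fell by 0.54 ± 0.07 in heated cells. ELO3 was also lower in heat than in control, by 1.52.

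Among the sphingoid base signalling kinases and Slm proteins 4 of 10 rose and 1 fell, against 16.5% and 16.3% of all genes. Without heat array 2 the rises were 2. YPK1 rose by 0.53 ± 0.05 and PKH1 by 0.35 ± 0.09. YPK2, the paralogue of YPK1, went the other way, at 10.95, 10.67 and 10.73 in heat with ISP1, against 11.23, 11 and 11.18 in heat, a fall of 0.35 ± 0.09 (limma adjusted p = 0.00468). YPK2 was also a gene whose heat rise was smaller with ISP1, at 1.59 between heat with ISP1 and ISP1 and 2.48 between heat and control (interaction -0.88, limma adjusted p = 1.92e-05). Without heat ISP1 raised YPK2, by 0.53. Of 12 genes of eisosomes, the furrows of the plasma membrane, and of the Sur7 family 5 rose and 1 fell, or 2 up without heat and ISP1 array 2 or heat array 2 or 3. PUN1 and FHN1, membrane proteins of that family, rose by 0.98 ± 0.10 and 0.79 ± 0.09, and SUR7 fell by 0.35 ± 0.06.

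Targets of Pdr1 and Pdr3, zinc cluster factors that turn on multidrug efflux pumps and lipid translocases, rose together. Of 18 members 15 rose and 1 fell, with a median of 0.97, against 16.5% of all genes that rose. RSB1, which exports sphingoid bases across the plasma membrane, was at 11.91, 12.15 and 12.07 in heat with ISP1, against 10.25, 9.86 and 10.11 in heat, and rose by 1.97 ± 0.13 (limma adjusted p = 4.5e-09). Its level in ISP1 was 12.04, 11.87 and 11.83, against 10.61, 10.32 and 10.52 in the control, so the levels of both ISP1 groups lay together above those of both groups without it. ICT1, a lysophosphatidic acid acyltransferase gene, was at 12.67, 12.7 and 12.82 in heat with ISP1, against 10.88, 10.95 and 10.93 in heat. Heat by itself left ICT1 at a difference of -0.06 from the control, and the rise with ISP1 was 1.81 ± 0.07 in heat and 1.61 without it, with no interaction that passed (0.20, limma adjusted p = 0.117). RTA1, a membrane protein gene related to RSB1, rose by 2.22 ± 0.14 in heat and by 2.70 without heat, and heat also raised it by 1.87.

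YGR035C, of unknown function, had the largest rise of all genes whose arrays did not overlap. It was at 9.0, 9.64 and 9.57 in heat with ISP1, against 6.54, 7.05 and 6.93 in heat, 10.12, 9.93 and 10.23 in ISP1 and 8.92, 8.85 and 9.04 in the control. Heat lowered YGR035C in the absence of ISP1, and ISP1 raised it in both settings, so that its level with both lay between those of control and ISP1. Its rise of 2.56 ± 0.22 in heat (limma adjusted p = 1.22e-07) exceeded that without heat, 1.16, by 1.40 (limma adjusted p = 0.00172). QDR2, a drug transporter gene, was the list member that fell, by 0.31 ± 0.09. It was named after its value was seen, and its call was lost on the 6 or the 12 YPD arrays alone and without heat and ISP1 array 2 or 3 or heat array 2 or 3.

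**Figure D1:**
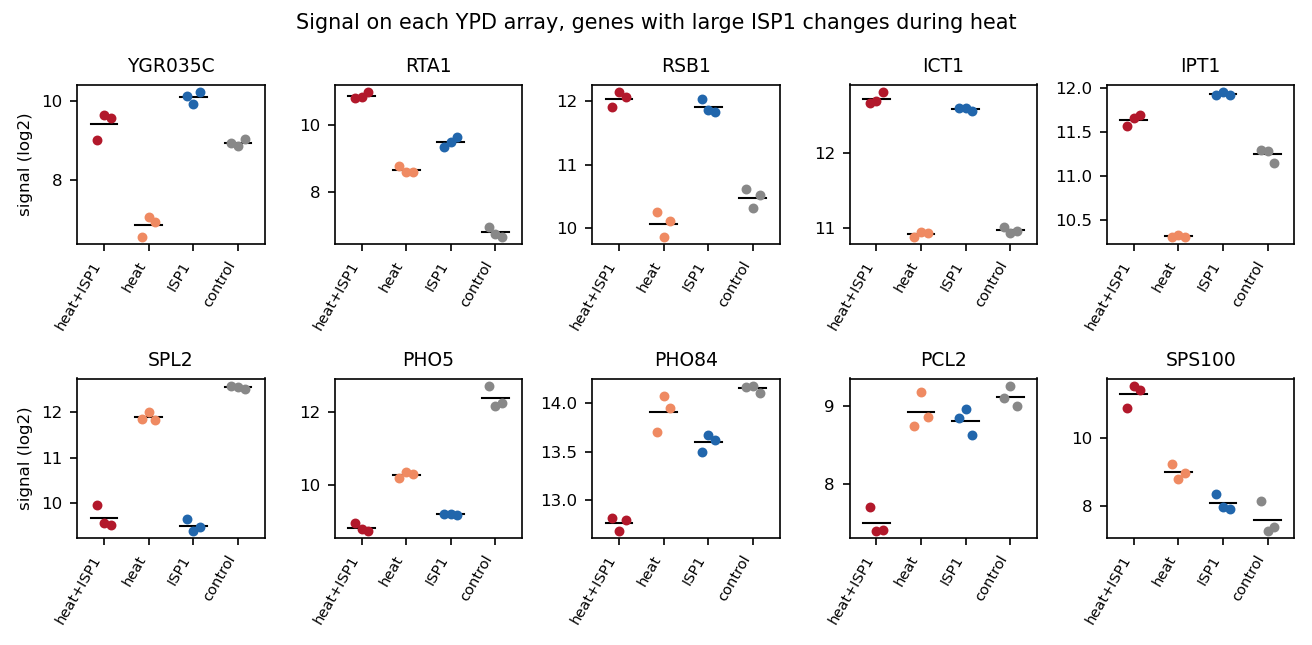
Log2 signal on each array (points) and group mean (lines) for 10 genes in heat with ISP1, heat, ISP1 and control, from left to right, each panel with its own scale. YGR035C, RTA1, RSB1, ICT1 and IPT1 were higher in heat with ISP1 than in heat on every array, as was SPS100, and SPL2, PHO5, PHO84 and PCL2 were lower on every array.

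The phosphate regulon fell with ISP1 in heated cells. These genes are turned on by Pho4 when phosphate is short and encode phosphatases, transporters and the proteins that store polyphosphate. Of 16 members 13 fell and none rose, with a median of -0.56, against 16.3% of all genes that fell. SPL2, an inhibitor of low-affinity phosphate uptake, was at 9.96, 9.55 and 9.51 in heat with ISP1, against 11.86, 12 and 11.83 in heat. Without heat the same gene was at 9.65, 9.38 and 9.47 in ISP1, against 12.59, 12.57 and 12.51 in the control. Both ISP1 groups lay below both groups without it, and heat with ISP1 against ISP1 differed by 0.17 ± 0.10, which did not pass (limma adjusted p = 0.126). The fall in heat, 2.23 ± 0.10, was smaller than that without heat, by 0.83 (limma adjusted p = 0.000135).

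PHO5, the main secreted acid phosphatase gene, was at 8.95, 8.81 and 8.74 in heat with ISP1, against 10.2, 10.37 and 10.3 in heat, 9.22, 9.21 and 9.19 in ISP1 and 12.73, 12.18 and 12.27 in the control. Heat alone had lowered PHO5, by 2.10, and ISP1 lowered it further, by 1.45 ± 0.11. PHO11, measured by a probe set that may bind related transcripts, fell by 1.52 ± 0.08 in heat and PHM6 by 1.77 ± 0.11. PHO84, the high-affinity phosphate transporter gene, ran the other way between the settings. It was at 12.81, 12.68 and 12.79 in heat with ISP1, against 13.7, 14.07 and 13.95 in heat, and its fall of 1.15 ± 0.07 exceeded that without heat, 0.56, by 0.59 (limma adjusted p = 0.00016). Over the list the interaction was positive in 9 members and negative in 2, that is, the ISP1 change was less negative in heat in 9 of 16.

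Cell cycle transcripts, already low in heat, were lower still with ISP1. In bulk RNA fewer cells in a phase and less RNA per cell cannot be told apart. Of 27 G1 and S phase genes 22 fell and none rose, with a median of -0.49, and of 21 mitotic genes 15 fell and none rose, with a median of -0.42. The daughter cell separation and M/G1 genes had 10 of 16 down and none up. Of all genes 16.3% fell. Between heat with ISP1 and ISP1 22 of the 27 G1 and S genes and 19 of the 21 mitotic genes fell, with medians of -1.23 and -1.37, while 4 and none rose. Between heat and control, a comparison that shares no array with that one, 21 and 20 fell and none rose, with medians of -1.51 and -1.35.

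PCL2, a cyclin of the Pho85 kinase that acts in G1, was set apart by its order of groups. Its level was 7.72, 7.41 and 7.42 in heat with ISP1, against 8.74, 9.17 and 8.85 in heat, 8.84, 8.95 and 8.63 in ISP1 and 9.1, 9.25 and 8.99 in the control. Only the group with both treatments stood well below the others. ISP1 lowered PCL2 by 1.40 ± 0.11 in heat (limma adjusted p = 3.64e-08), and the interaction was -1.10 (limma adjusted p = 1.99e-05). PCL9, a related cyclin of M/G1, fell by 1.00 ± 0.15. GIN4, a kinase gene of the bud neck, was at 8.54, 8.34 and 8.36 in heat with ISP1, against 9.24, 9.29 and 9.22 in heat, a fall of 0.84 ± 0.07. CLB2, the main mitotic cyclin gene, was at 7.03, 6.77 and 6.64 in heat with ISP1, against 7.45, 7.69 and 7.67 in heat. That fall of 0.79 ± 0.10 came on top of a heat effect of -2.89, and the interaction did not pass (0.22, limma adjusted p = 0.233). The ribonucleotide reductase gene RNR1 fell by 0.83 ± 0.08 and the repressor gene YOX1 by 0.80 ± 0.09.

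Genes of ribosome biogenesis, which cells shut off in stress, were also lower. Of 80 members 59 fell and none rose, with a median of -0.44, against 16.3% of all genes that fell. The count was 28 without heat and ISP1 array 1 and 30 and 39 without heat arrays 2 and 3. It was 15 when only the 6 arrays were fitted, 67 when these were fitted with the replicate block and 64 with the block on all arrays, and 79 of the 80 differences were negative. DBP2, an RNA helicase gene, was at 8.79, 8.75 and 9.18 in heat with ISP1, against 9.46, 10.11 and 9.81 in heat, and fell by 0.89 ± 0.17. KRR1, of the small subunit processome, fell by 0.74 ± 0.12. All 80 members fell between heat with ISP1 and ISP1, with a median of -1.64, and all 80 fell with each treatment given alone, with medians of -2.17 for heat against control and -1.01 for ISP1 against control. The interaction was positive in 51 and negative in none. For the other growth lists 10 of 28 RNA polymerase I and III genes fell and none rose, or 4 without heat and ISP1 array 1 or heat array 2 and 6 without heat array 3. Of 128 cytosolic ribosomal protein genes 41 fell and 8 rose. That balance was not stable, with 25 falls and 19 rises without heat and ISP1 array 1, 21 falls and 5 rises without heat array 1, and 18 falls and 1 rise on the 6 arrays alone.

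**Figure D2:**
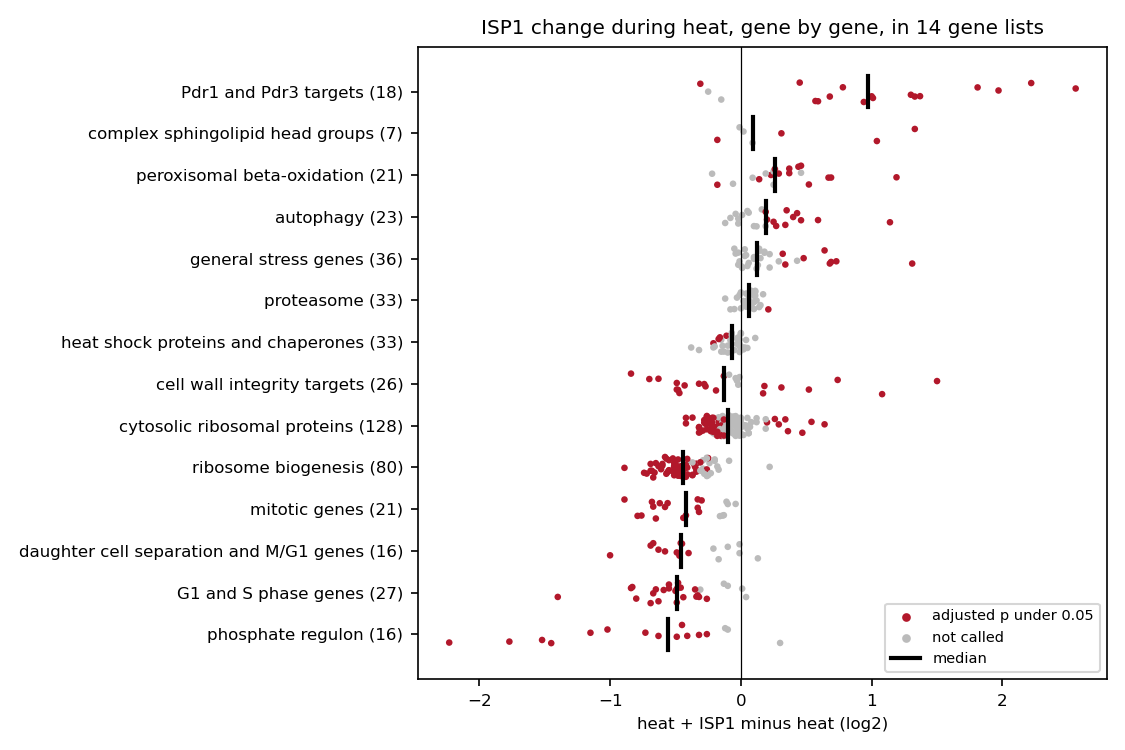
Log2 difference between heat with ISP1 and heat for each gene of 14 lists (points), with genes past the adjusted p threshold in red and list medians as black bars. Of the 18 Pdr1 and Pdr3 targets 15 passed above 0, with a median of 0.97. Most phosphate, cell cycle and ribosome biogenesis genes lie below 0, with list medians between -0.56 and -0.42.

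The core of the heat response was present with ISP1. Of 33 genes for heat shock proteins and chaperones 30 rose and 3 fell between heat with ISP1 and ISP1, with a median of 1.68, and the same numbers rose and fell between heat and control, with a median of 1.76. In 28 of the 33 the level was 13 or more in a heated group, near the top of the signal by a limit set after the values were seen. Between heat with ISP1 and heat 4 fell and none rose, with a median of -0.07, against 16.3% of all genes that fell. Only 1 gene of the list was called lower without heat and ISP1 array 2 or heat array 2. Without heat array 2 none of the calls of SSB2, YDJ1, HCH1 and HSC82, the 4 genes, held. HSC82, an Hsp90 gene, was the smallest of the 4, at 14.41, 14.43 and 14.38 in heat with ISP1, against 14.53, 14.52 and 14.48 in heat, and its call was lost in 11 of 16 alternatives, among them the 6 or 12 YPD arrays alone, the replicate block, quantile normalization and the omission of any 1 of the 6 arrays. APJ1, a J-domain chaperone gene, had the largest difference of the list, -0.38 ± 0.20, which did not pass (limma adjusted p = 0.145). Of 33 proteasome genes 31 rose in heat with ISP1 against ISP1 and 33 in heat against control. Only PUP3, a core particle subunit gene, differed between heat with ISP1 and heat, by 0.21 ± 0.06.

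General stress genes, targets of the factors Msn2 and Msn4, rose with each treatment alone and changed little when ISP1 was added to heat. All 36 rose in heat against control, with a median of 3.29, and 35 rose in ISP1 against control, with a median of 1.57. Between heat with ISP1 and heat 8 of 36 rose and none fell, with a median of 0.13, against 16.5% of all genes that rose. Without heat and ISP1 array 2 the rises were 5. The interaction was negative in 31 of the 36, with a median of -1.29. Many of these genes were near the top of the signal range when heated: the highest level of any gene in a heated group was 15.04, and 29 of the 36 lay at 13 or more in heat with ISP1 or heat. Of the 7 that stayed below 13, 4 had a negative interaction, with a median of -0.50 over the 7. What part the signal range had in the interaction was not tested. XBP1, a repressor gene induced by stress, was below that range, at 9.21, 9.53 and 9.57 in heat with ISP1, against 8.33, 7.81 and 8.23 in heat. It rose by 1.31 ± 0.13 in heat and by 1.56 without heat (interaction -0.25, limma adjusted p = 0.309). USV1, a zinc finger factor gene, rose by 0.73 ± 0.14 in heat and by 1.88 without heat, with an interaction of -1.15 (limma adjusted p = 0.000173). CTT1, the cytosolic catalase gene, was chosen after its values were seen: it averaged 14.46 in heat with ISP1, 14.33 in heat, 12.65 in ISP1 and 9.48 in the control. In trehalose and glycogen metabolism 5 of 22 rose and none fell, or 3 without any 1 of heat and ISP1 arrays 2 and 3 and heat arrays 2 and 3. The interaction was negative in 16 of them, and in 6 of the 12 that stayed below 13.

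The heat changes that ISP1 opposed were next counted among the 1488 genes that heat changed by 2-fold or more, 715 raised and 773 lowered. Heat with ISP1 against heat, and heat against control, share the 3 heat arrays, so an error in those arrays moves both, in opposite directions. ISP1 in heat did not pass for 822 of the 1488 (55.2%), went the same way as heat for 529 (35.6%) and went against it for 137 (9.21%). In 96 genes (6.45% of the 1488, and 1.76% of all genes) the ISP1 change went against heat and the interaction passed with the same sign. Heat had raised 46 of them and lowered 50. Without heat and ISP1 array 2 or 3 the count was 60 or 59, and without array 1 it was 133. These genes were chosen by the same tests, so the values given for them below describe the choice.

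For most of the 96 the heat change was smaller with ISP1 and not lost. Heat with ISP1 against ISP1 still passed in the direction of heat for 88 and did not pass for 8. It passed in that direction for 1449 of all 1488 (97.4%). The median of the heat change left with ISP1, relative to that without, was 52.4% over the 96 and 71% over all 1488. ISP1 without heat changed 61 of the 96 in the direction of heat, changed 4 against it and did not pass for 31. Among all 1488 it changed 1166 (78.4%) in the direction of heat, so this was no special trait of the 96. Over all 1488 the interaction went against heat in 919 (61.8%) and with it in 49 (3.29%). The interaction holds the heat against control difference with its sign turned, and these genes were chosen for a large one, so error in the heat and control arrays moves these counts, and the share of the heat change left, towards a smaller heat change with ISP1. The size of that shift was not tested. In 526 of the 919 heat with ISP1 did not differ from heat past the threshold, so these heat changes differed in size without a difference between the heated groups that passed.

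**Figure D3:**
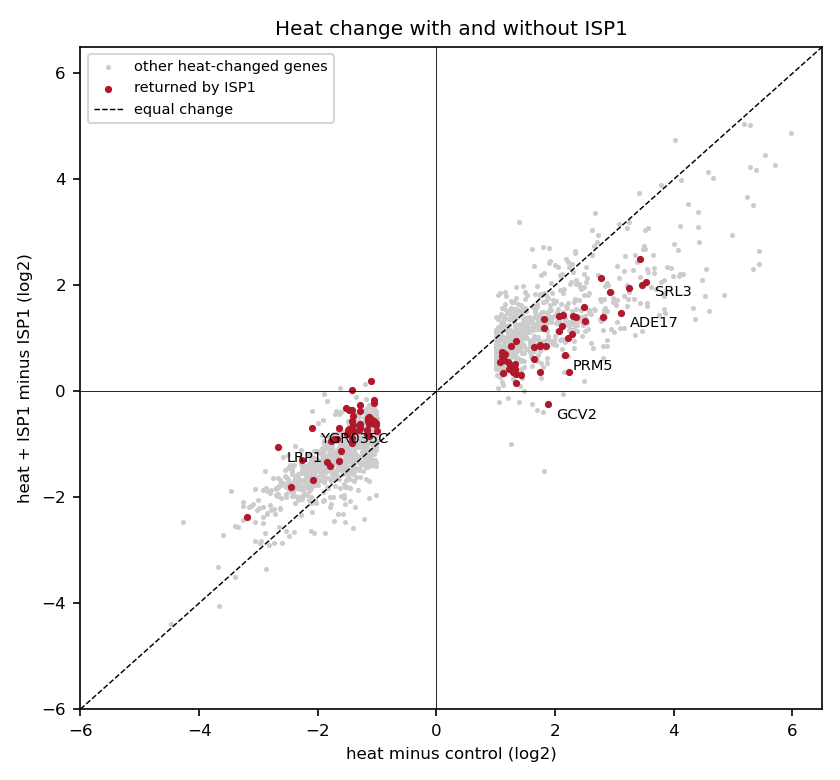
Log2 change of heat against control (horizontal) and of heat with ISP1 against ISP1 (vertical), 1 point for each of the 1488 genes changed at least 2-fold by heat, with the 96 genes whose heat change ISP1 opposed in red and a dashed line of equal change. Most points keep their sign, and the median change left with ISP1 was 71%.

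By the size of the interaction, genes of glycine breakdown, one-carbon units and purine synthesis led the heat-raised members of the 96. By the ISP1 change in heat, YOR072W-B (-1.65) and KDX1 (-1.17) came before GCV2 (-1.15). The probe set of YOR072W-B may bind related transcripts. Serine is the substrate of serine palmitoyltransferase and also a source of glycine and of one-carbon units. GCV2, the glycine decarboxylase gene of the mitochondrial glycine cleavage complex, was at 11.09, 11.45 and 11.44 in heat with ISP1, against 12.21, 12.67 and 12.53 in heat, 11.42, 11.6 and 11.66 in ISP1 and 10.66, 10.42 and 10.7 in the control. Each treatment alone raised GCV2, and with both its level lay near that of ISP1. Heat changed it by -0.24 in the presence of ISP1, which did not pass (limma adjusted p = 0.0573), and by 1.88 without (interaction -2.12, limma adjusted p = 7.29e-09). GCV1, for the T subunit of the same complex, was at 12.05, 12.43 and 12.35 in heat with ISP1, against 12.6, 12.93 and 12.89 in heat. Heat raised GCV1 by 0.36 with ISP1 and by 2.24 without. ISP1 raised GCV1 by 1.36 without heat and lowered it by 0.53 in heat, so the raised unheated level made the larger part of that difference. ADE17, which acts late in purine synthesis with a folate one-carbon unit, was at 10.74, 10.95 and 11 in heat with ISP1, against 11.62, 12.19 and 12.11 in heat, 9.42, 9.41 and 9.43 in ISP1 and 8.92, 8.92 and 8.72 in the control. It fell by 1.08 ± 0.11 with ISP1 in heat and kept a heat rise of 1.48 with ISP1, against 3.12 without.

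After these values were seen a list of 17 genes of glycine cleavage, one-carbon metabolism and purine synthesis was drawn up, so its counts are a description. Between heat with ISP1 and heat 14 of 17 fell and none rose, with a median of -0.29, and the interaction was negative in 13. In heat with ISP1 against ISP1 4 rose and 9 fell, and in heat against control 9 rose and 5 fell. MTD1, a cytosolic methylenetetrahydrofolate dehydrogenase gene, averaged 10.73 ± 0.14 in heat with ISP1 and 11.56 ± 0.28 in heat (SD, n = 3). SHM2, the cytosolic serine hydroxymethyltransferase gene, averaged 12.05 ± 0.11 in heat with ISP1 and 12.82 ± 0.21 in heat. The heated cells without ISP1 had the highest SHM2 mean, since ISP1 alone gave 11.97 and the control 11.98.

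The other strongly opposed rises included genes of the cell wall integrity pathway. KDX1, related to the kinase Slt2 of that pathway, was at 8.17, 8.33 and 7.95 in heat with ISP1, against 9.07, 9.54 and 9.33 in heat, 7.68, 7.94 and 7.72 in ISP1 and 7.55, 7.5 and 7.65 in the control. Its heat rise was 0.37 with ISP1 and 1.75 without (interaction -1.37, limma adjusted p = 1.65e-05), and ISP1 alone changed it by 0.21, which did not pass. PRM5, a transcript raised by the same pathway, was at 11.19, 11.2 and 11.01 in heat with ISP1, against 11.98, 11.95 and 11.98 in heat, a fall of 0.84 ± 0.13. SRL3, a relative of the G1 repressor Whi5, was at 11.85, 11.75 and 11.71 in heat with ISP1, against 12.59, 12.49 and 12.56 in heat, and kept a heat rise of 2.07 with ISP1, against 3.54 without. CRG1, a methyltransferase gene of cantharidin resistance, fell by 0.42 ± 0.07. Without heat ISP1 raised PRM5 by 0.64, SRL3 by 0.70 and CRG1 by 1.04, so their smaller heat rises also hold a raised unheated level.

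In the list of cell wall integrity targets 7 of 26 rose and 13 fell, against 16.5% and 16.3% of all genes. The 96 held 5 of the 26, all raised by heat. Beside PRM5 these were PIR3 and CWP1, for wall mannoproteins, PST1 and SLT2 itself, these 4 being named after their values were seen. PIR3 averaged 11.70 ± 0.20 in heat with ISP1 and 12.18 ± 0.05 in heat (SD, n = 3). The members that rose included enzymes of wall building and repair. GSC2, the stress-induced glucan synthase gene, was at 12.67, 12.93 and 12.99 in heat with ISP1, against 11.5, 11.27 and 11.31 in heat, and rose by 1.50 ± 0.11. Its paralogue FKS1, the synthase gene of growing cells, was at 12.37, 12.4 and 12.19 in heat with ISP1, against 12.93, 13.07 and 13.06 in heat, and fell by 0.70 ± 0.06. FKS1 differed by -0.08 between ISP1 and control, which did not pass (interaction -0.62, limma adjusted p = 8.1e-06). The yapsin protease genes YPS1 and YPS3 rose by 1.08 ± 0.08 and 0.74 ± 0.11.

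Heat-lowered genes that ISP1 raised were of mixed function. LRP1, a cofactor of the nuclear exosome, was at 9.34, 9.05 and 9.07 in heat with ISP1, against 8.77, 8.49 and 8.5 in heat, 10.16, 10.29 and 10.2 in ISP1 and 11.14, 11.31 and 11.33 in the control. Heat changed LRP1 by -1.06 with ISP1 and by -2.67 without, so a fall remained. ALR1, the plasma membrane magnesium transporter gene, was at 10.31, 10.39 and 10.38 in heat with ISP1, against 10.11, 9.9 and 10.04 in heat, a rise of 0.35 ± 0.06. SHU2, of a complex for error-free recombination, rose by 0.54 ± 0.09, and YLL054C, a putative zinc cluster factor, by 0.49 ± 0.12. In these 4 genes ISP1 without heat lowered the level, as heat did. YGR035C, described above among the Pdr targets, belongs to this group as well, and there ISP1 without heat raised it.

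**Figure D4:**
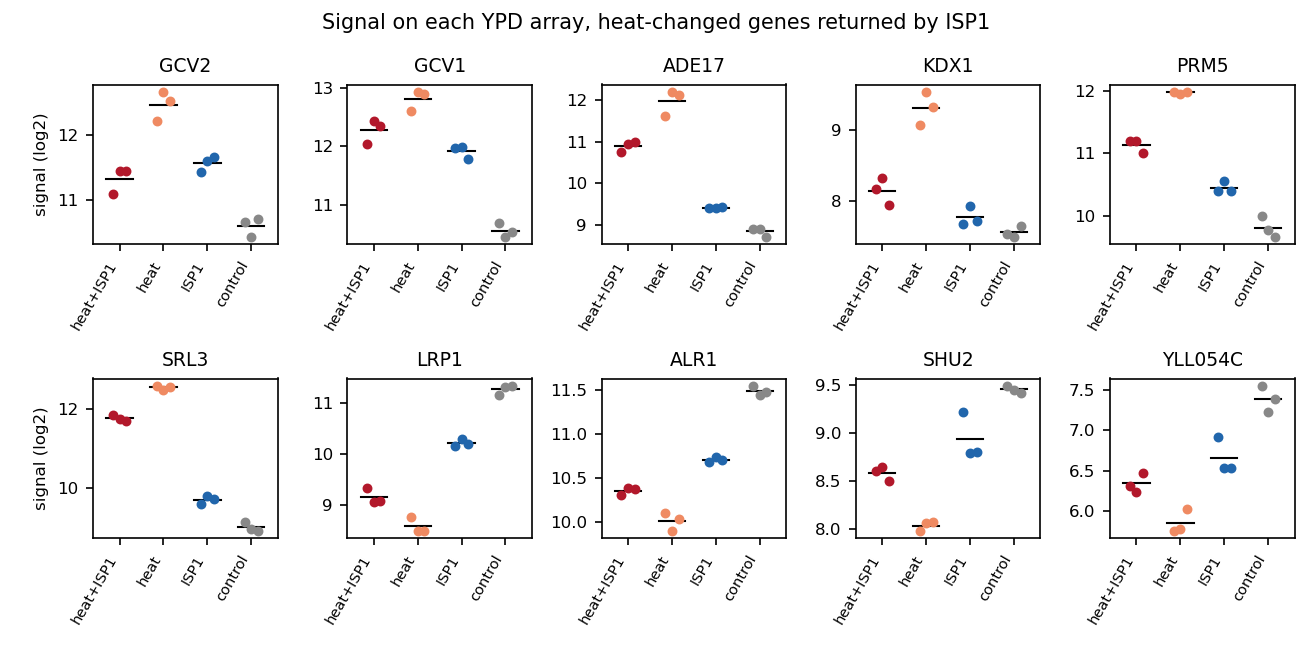
Log2 signal on each array (points) and group mean (lines) for 10 genes whose heat change ISP1 opposed, in heat with ISP1, heat, ISP1 and control, from left to right, each panel with its own scale. In GCV2, GCV1, ADE17, KDX1, PRM5 and SRL3 heat with ISP1 lies below heat, and in LRP1, ALR1, SHU2 and YLL054C above it.

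In 49 of the 1488 genes the heat change was larger with ISP1. Among the genes with the largest such interaction, over all sizes of heat change, 2 kinds were seen. STR2 and HIS3, given further below, were of neither kind, since ISP1 raised both of them in heat and raised them more without heat. In the first the heated groups did not differ past the threshold and ISP1 had raised the unheated level. CPA1, the small subunit gene of the carbamoyl phosphate synthetase for arginine, was at 11.43, 11.38 and 11.48 in heat with ISP1, against 11.46, 11.42 and 11.47 in heat, 13.11, 13.59 and 13.5 in ISP1 and 11.45, 11.83 and 12.04 in the control. YOR302W, the short leader reading frame in the same transcript as CPA1, had the same order, with an interaction of -1.89 (limma adjusted p = 7.21e-09) and -0.02 ± 0.12 for CPA1 between the heated groups. SDT1, a pyrimidine nucleotidase gene, was of this kind too, at -0.25 ± 0.12 between the heated groups.

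In the second kind the group with both treatments stood apart. SPS100, a spore wall gene, was at 10.89, 11.53 and 11.41 in heat with ISP1, against 9.24, 8.79 and 8.97 in heat, 8.37, 7.97 and 7.92 in ISP1 and 8.17, 7.28 and 7.4 in the control. Its rise in heat was 2.27 ± 0.21, and ISP1 alone changed it by 0.47, which did not pass (limma adjusted p = 0.054). YDR222W, of unknown function, was at 8.06, 7.85 and 7.9 in heat with ISP1, against 9.0, 9.22 and 9.31 in heat, 9.8, 9.82 and 9.57 in ISP1 and 9.78, 9.8 and 9.73 in the control. ISP1 lowered it by 1.24 ± 0.08 in heat and gave -0.04 without heat. PEX21, a peroxisomal import factor gene, combined both kinds, with a fall of 0.58 ± 0.13 in heat and a rise of 1.40 without.

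The change that ISP1 made with heat was last set beside the change it made without heat, a comparison of 6 other arrays. Of the 1784 genes that ISP1 changed in heat, 1182 (66.3%, and 35.5% of the 3331) passed in the same direction without heat. Another 150 (8.41%) passed in the opposite direction and 452 (25.3%) did not pass. Among all genes ISP1 without heat passed for 61.1%, with 27.9% up and 33.2% down. The interaction passed for 881 of the 1784 (49.4%) and for 220 of the 452, against 40.9% of all genes. That test holds the ISP1 change in heat, by which the 1784 were chosen, so these counts in part describe the choice. Pdr1 and Pdr3 targets had medians of 0.97 in heat and 0.90 without, and the interaction passed upwards in 6 and downwards in 4 of 18. The phosphate regulon had medians of -0.56 in heat and -0.80 without. General stress genes differed more, with medians of 0.13 in heat and 1.57 without. In a heated group 29 of the 36 lay at 13 or more, and what part the signal range had in this was not tested.

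**Figure D5:**
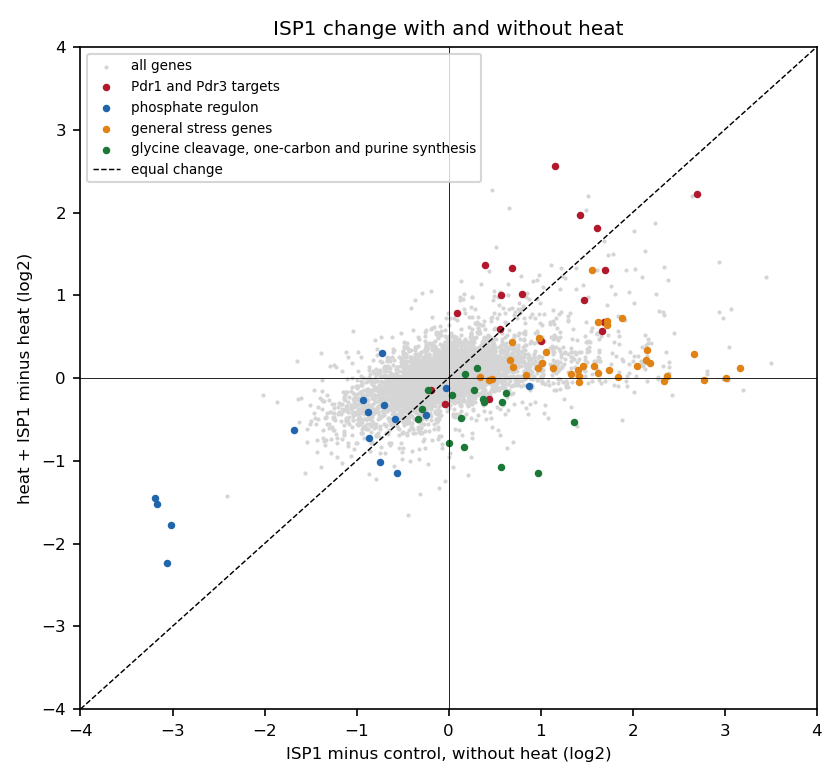
Log2 change by ISP1 without heat (horizontal, ISP1 against control) and with heat (vertical, heat with ISP1 against heat) for all 5449 genes, with Pdr1 and Pdr3 targets in red, the phosphate regulon in blue, general stress genes in orange and glycine, one-carbon and purine genes in green. Most Pdr targets lie above 0 on both axes, most of the phosphate regulon below 0 on both, and most general stress genes to the right, near 0 on the vertical axis.

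The rest of the largest rises in heat came from genes outside these pathways. BAG7, a GTPase activating protein gene for Rho1, was at 10.13, 9.75 and 9.75 in heat with ISP1, against 7.95, 7.52 and 7.55 in heat, a rise of 2.20 ± 0.15. DIA1, a gene linked to invasive growth, rose by 2.20 ± 0.12 and PRM4, a gene regulated by pheromone, by 2.06 ± 0.17. PUT1, the proline oxidase gene, rose by 1.58 ± 0.12. The ISP1 change of BAG7, PRM4 and PUT1 was larger in heat than without it, and that of DIA1 did not differ past the threshold (limma adjusted p = 0.0515).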

How the data were processed

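Per the labels' protocols, phenol-extracted total RNA was biotin-labelled for Affymetrix yeast arrays. The values deposited by the authors are log2 signals, 1 column per array. Their processing notes name affy and RMA without versions. RMA gives every array 1 distribution, so a shift common to most genes is removed. Poly-A control probe sets averaged 8.19 ± 0.37 in heat with ISP1 and 7.85 ± 0.13 in heat (SD, n = 3). They averaged 7.49 ± 0.05 in ISP1 and 7.47 ± 0.11 in the control, and whether this marks a common shift was not tested. The number of arrays limits the precision.

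Of 10928 probe sets 5498 carried 1 S. cerevisiae gene. For 47 genes with more than 1 the brightest was used, which left 5449 genes. Another species' 1746 probe sets gave the background, with a 95th percentile of 4.84, which 5357 genes exceeded. Groups and replicate numbers came from the titles.

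All comparisons were contrasts in 1 group-means model over 21 arrays (limma 3.58.1 in R 4.3.3, moderated by eBayes on 14 residual degrees of freedom). Adjusted p-values are Benjamini-Hochberg values over 5449 genes. The interaction is heat with ISP1 minus heat, less ISP1 minus control. An exact test of 3 against 3 cannot go below 0.1, so none was made. A heat change was counted as opposed by ISP1 where heat against control passed at 2-fold or more and ISP1 in heat and the interaction both passed with the opposite sign.

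The part of the data studied, the 46 gene lists and the tests were chosen with earlier results of these data known, and 1 list was added after the values here were seen. Of the list entries 20 were not matched. Named genes are the 15 largest rises and 15 largest falls whose arrays did not overlap, up to 5 members of each list with the largest change, all sphingolipid list members, up to 12 opposed genes per direction by interaction, and the 8 largest interactions in the direction of heat. Promoters were not used here.

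Deviations of same-numbered arrays, numbered by the titles, correlated across genes by 0.433, 0.279 and 0.172 between heat with ISP1 and heat. Array 3 of heat with ISP1 correlated best with array 2 of heat (0.363). The main fit did not pair the arrays, so its standard errors and p-values take no account of these shared deviations. Pairing by number was used only in the replicate block. The alternatives were to fit 6 or 12 arrays, to block on replicate, to drop dim genes, to renormalize by quantiles or centre by medians, to let the prior follow intensity robustly, to weight arrays, to average probe sets, to ask for 2-fold, and to leave out each array. In simulated data with 200 of 5449 genes changed, ISP1 in heat recovered 82% of log2 changes of 0.5 and 100% of those of 1, with 5.21% false calls. The interaction recovered 62% and 97%, with 4.79% false. The simulated noise was drawn apart for each gene and array, unlike the shared deviations above, so these rates need not hold for the real arrays.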

Additional observations from a re-analysis of the deposited data

Results flagged for a closer look

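The results below were singled out because the change made by ISP1 differed between heated and unheated cells by the test of that difference, the interaction in limma, which passed for 2231 of 5449 genes. Values are interactions, the ISP1 change in heat less that without heat (log2). They come from 4 groups of 3 arrays, and genes chosen for their interaction, as the opposed heat changes were, are given as a description.

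Among genes that ISP1 raised in heat the rise was larger than without heat by 1.40 for YGR035C, 1.80 for SPS100, 0.70 for BAG7, 1.39 for PRM4, 0.54 for RSB1 and 1.06 for PUT1. For YHI9, of unknown function, the interaction was -0.60, so its rise in heat, 1.53, was the smaller one, against 2.13 without heat. In the phosphatase and phosphate genes SPL2 (0.83), PHM6 (1.25), PHO11 (1.65), PHO5 (1.73) and PHO3 (0.98) positive values mean a smaller fall in heat, where the level was already lower, and in PHO84 (-0.59) the fall was larger in heat. Larger falls in heat were also those of PCL2 (-1.10), MFA2 (-1.23), YDR222W (-1.20) and YOR072W-B (-1.21), the last measured by a probe set that may bind related transcripts.

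Among heat-raised genes opposed by ISP1 the interaction was -2.12 for GCV2, -1.88 for GCV1, -1.65 for ADE17, -1.48 for PRM5, -1.47 for SRL3, -1.46 for CRG1, -1.37 for KDX1 and -1.19 for GPP2, a glycerol phosphatase gene. It was -1.38 for SRX1, which encodes sulfiredoxin, -1.29 for SIP4, a zinc cluster activator gene, and -1.20 for the acetyltransferase gene HPA2. Among heat-lowered genes it was 1.61 for LRP1, 1.44 for YLL053C, 1.21 for its neighbour YLL054C, 1.13 for ALR1, 1.06 for SHU2, 1.03 for RSN1, 0.97 for HRP1, 0.94 for SMM1 and 0.92 for YOR394C-A. HXT2, a hexose transporter gene, had 1.31 and PHD1, a factor of filamentous growth, 0.95. The calls of GPP2, SRX1, SIP4, HPA2, YLL053C, RSN1, HRP1, SMM1, HXT2 and PHD1 in heat were lost under at least 1 alternative.

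Where the heat change was larger with ISP1, the interaction was -1.98 for PEX21, -1.89 for YOR302W, -1.65 for CPA1, -1.49 for SDT1, -1.75 for STR2 and -1.34 for HIS3. STR2 acts in sulfur amino acid synthesis and HIS3 in histidine synthesis. ISP1 raised STR2 by 0.40 in heat and by 2.15 without heat, and HIS3 by 0.51 in heat and by 1.85 without heat. The call of STR2 in heat was lost in 2 of 16 alternatives, without heat and ISP1 array 2 or heat array 1, and that of HIS3 in 4, also without heat and ISP1 array 3 and on the 6 arrays alone.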

How the results depend on the processing

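No named call turned its direction under the 16 alternatives run for heat with ISP1 against heat. Of the 229 named genes called, 158 passed under all of them and 71 lost the call under at least 1, for reasons that were not tested. The count of 1784 genes changed by ISP1 in heat was 2960 with array weights, 78 with a 2-fold minimum, 1304 on the 6 arrays alone and 1360 to 1693 with each array left out. The interaction count of 2231 was 1966 to 2316 with each array left out. Of the heat changes opposed by ISP1, 96 in number, 211 were counted with array weights, 255 with no minimum heat change, 59 to 133 with each array left out, and 60 without heat and ISP1 array 2. The 1182 genes changed in the same direction with and without heat were 895 to 1184 with each array left out.

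With the replicate block, which pairs arrays by number, these counts were 1917, 2358, 106 and 1271, and the first was 1685 with the block on the 6 arrays alone, a setting chosen after seeing the data. The block moved none of these 4 counts by over 1.5 times. Of the named results 1 call was lost with the block and 7 were gained. Genes near the top of the signal range, with the highest at 15.04, can show only small further rises, and changes near the background of 3.94 are understated.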

Other observations

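Of 23 autophagy genes 11 rose in heated cells given ISP1, 12 did not pass and none fell, with a median of 0.19, against 16.5% of all genes that rose. The count was 7 without heat array 2. ATG5, for a conjugation factor of autophagosome growth, was at 11.52, 11.38 and 11.49 in heat with ISP1, against 10.44, 10.32 and 10.21 in heat, a rise of 1.14 ± 0.07. ATG1, the kinase gene that starts autophagy, rose by 0.59 ± 0.11 and ATG3 by 0.43 ± 0.07. Among peroxisomal beta-oxidation genes 12 of 21 rose and 1 fell, with a median of 0.26, against 16.5% of all genes that rose. POT1, the thiolase gene, was at 10.16, 9.83 and 9.81 in heat with ISP1, against 9.11, 8.58 and 8.55 in heat. Its level was also higher in heat with ISP1 than in ISP1, by 2.44.

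Of 22 mating genes 10 fell, 1 rose and 11 did not pass, against 16.3% of all genes that fell. FAR1, which holds cells in G1 in response to pheromone, was at 8.44, 8.04 and 8.04 in heat with ISP1, against 9.45, 9.42 and 9.08 in heat, and MFA2, a pheromone gene, fell by 1.33 ± 0.22. The receptor gene STE2 averaged 7.21 ± 0.05 in heat with ISP1 and 8.05 ± 0.17 in heat (SD, n = 3), and was among the 96 opposed heat changes. So was STE3, the other receptor gene, named after its values were seen, which heat lowered by 3.19 and ISP1 raised in heat by 0.49 ± 0.11. The 2 receptor genes differed in level, with control means of 6.93 for STE2 and 12.25 for STE3. Of 28 ergosterol synthesis genes 12 fell, 2 rose and 14 did not pass, with a median of -0.08, or 7 and 2 on the 6 arrays alone. ERG5, for a sterol desaturase, fell by 0.62 ± 0.08, and UPC2, a sterol-sensing activator gene, rose by 0.47 ± 0.07. Among hexose transporters HXT4, of high affinity, rose by 1.25 ± 0.18, and HXT1, of low affinity, fell by 0.98 ± 0.19. In iron uptake 8 of 26 rose and 3 fell, with a median of 0.03, against 16.5% and 16.3% of all genes. ENB1, a siderophore transporter gene, rose by 0.77 ± 0.09 and FTR1, the high-affinity iron permease gene, fell by 0.82 ± 0.10. The spore wall gene OSW2 was at 10.45, 10.72 and 10.66 in heat with ISP1, against 8.95, 8.28 and 8.49 in heat.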
